A study of Mus musculus with 5 samples.

Results

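The miR-192 and miR-215 family and the miR-194 family are represented in mouse testis small RNA by 3 mature miRNAs out of 717 mature miRNAs kept from the deposited counts. They are mmu-miR-192-5p, mmu-miR-215-5p and mmu-miR-194-5p, written below without the species prefix. They were taken by name, and had been chosen by their counts in the 2 genotypes in these same libraries, where miR-192-5p was low and miR-215-5p high in Mtdh-/- testis. Their genotype differences are therefore given as a description, with no test. Small RNA was sequenced from testes of C57BL/6 mice aged 6 months, with 2 wild-type libraries and 3 Mtdh-/- libraries. Mtdh encodes metadherin, and the Mtdh-/- mice lack its exon 3, per the series title. The labels name no Cre, transgene or treatment, and the counts of miRNAs hold no value for Mtdh with which the genotype could be checked. Only the sample titles tell the libraries apart, and separate animals are not stated, so p-values measure the spread between these libraries only.

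A miRNA pairs with target messenger RNAs mainly through its seed, bases 2 to 8 from the 5′ end, and represses them within the Argonaute complex. miR-192 and miR-215 are paralogs with the same seed, and each is made from a gene cluster that also holds a copy of miR-194, whose seed differs. These miRNAs are best known from intestine, liver and kidney, and in human cells they are reported to be induced by p53 and to slow cell division.

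The mature sequences are shown because the comparison turns on how alike the paralogs are. They come from RefSeq (GRCm38.p6), all on the + strand, and capitals mark the seed.
miR-192-5p: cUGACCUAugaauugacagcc
miR-215-5p: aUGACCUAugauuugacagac
miR-194-5p: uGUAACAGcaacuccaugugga
The seed UGACCUA was found in 2 of the 717 miRNAs, miR-192-5p and miR-215-5p, and GUAACAG only in miR-194-5p. Positions counted from 1 at the 5′ end, and going from miR-192-5p to miR-215-5p, the paralogs differ by 3 substitutions, C1A, A12U and C20A. The other 18 of 21 bases are identical. None of the 3 differences lies in the seed, and all 3 are single-base changes by which a full-length read can be assigned.

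The 4 hairpins lie in 2 clusters. On chromosome 1, Mir194-1 (chr1:185313319-185313385) and Mir215 (chr1:185313581-185313692) are separated by 195 bases. Both lie in an intron of Iars2, which is on the opposite strand, and within the antisense gene 2010103J01Rik (chr1:185312187-185313803) on the same strand in GENCODE M21. Mir194-1 falls in an intron of that gene and Mir215 overlaps one of its exons. On chromosome 19, Mir194-2 (chr19:6264643-6264728) and Mir192 (chr19:6264844-6264932) are separated by 115 bases and overlap no other annotated gene. The nearest genes are Atg2a, upstream on the same strand, and the lincRNA Gm14963, downstream on the opposite strand. The mature miR-192-5p lies at chr19:6264857-6264877 and miR-215-5p at chr1:185313610-185313630. miR-194-5p is encoded at chr1:185313325-185313346 and again, with the same letters, at chr19:6264658-6264679. Reads of this mature sequence therefore cannot be divided between the clusters, while the bases that follow it in the hairpins differ.

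The libraries held between 118475 and 720259 miRNA counts and between 305 and 423 miRNAs with a count. Levels are given as CPM, counts scaled to a library total of 1000000 miRNA counts. The 3 counts that an uncounted miRNA could still have correspond to between 4.17 and 25.3 CPM, depending on the library. Libraries did not sort by genotype, and whether any label had been exchanged was not tested. Across the 246 miRNAs tested, log2 CPM of wild type 1 lay closest to that of Mtdh-/- 3 (Pearson r = 0.954), whereas the 2 wild-type libraries had an r of 0.869 with each other. Mtdh-/- 2, the shallowest library, had r between 0.830 and 0.842 with the rest. These miRNAs come from the same libraries and are not independent replicates.

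miR-192-5p, the abundant paralog, was lower in each Mtdh-/- library than in either wild-type library. It had 7843 and 6455 CPM in the wild-type libraries, and 3002, 2169 and 5514 CPM in Mtdh-/- 1, 2 and 3. These values rest on 1558, 3065, 2162, 257 and 1425 counts in the same order. The groups did not overlap, but Mtdh-/- 3 lay much nearer to wild type 2 than to the other Mtdh-/- libraries. Wild type averaged 7149 ± 982 CPM and Mtdh-/- averaged 3562 ± 1741 CPM (SD, n = 2 and n = 3), and the fitted log2 fold change was -0.90 (SE 0.64). Without Mtdh-/- 3 it was -1.45, and without wild type 1 it was -0.41. In such whole-tissue RNA, fewer cells of a type and less RNA per cell cannot be told apart.

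miR-215-5p, the rare paralog, went the other way. It had 40.3 and 23.2 CPM in wild type, and 58.3, 67.5 and 92.9 CPM in Mtdh-/-. The counts behind these levels were 8, 11, 42, 8 and 24, so the wild-type values and that of Mtdh-/- 2 rest on very few reads. Each Mtdh-/- library lay above both wild-type libraries, with Mtdh-/- 3 the highest and wild type 2 the lowest. Wild type averaged 31.7 ± 12.1 CPM and Mtdh-/- averaged 72.9 ± 17.9 CPM (SD, n = 2 and n = 3). The fitted log2 fold change was 1.30 (SE 0.85), and it ranged from 0.72 without wild type 2 to 2.07 without wild type 1. From the most abundant sequence alone it was 0.73, and on that count Mtdh-/- 1, with 38.9 CPM, no longer lay above wild type 1, with 40.3 CPM.

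miR-194-5p, the miRNA encoded beside both paralogs, followed neither of them. Its levels were 176 and 29.5 CPM in wild type, and 13.9, 127 and 182 CPM in Mtdh-/-, from 35, 14, 10, 15 and 47 counts. The groups overlapped: wild type 1, Mtdh-/- 2 and Mtdh-/- 3 were high, while wild type 2 and Mtdh-/- 1 were low. The averages of 103 ± 104 CPM for wild type and 107 ± 85.6 CPM for Mtdh-/- (SD, n = 2 and n = 3) did not differ beyond this spread. The fitted log2 fold change was -0.12 (SE 1.19) and its sign was not stable, being 0.065 when only library totals were used for scaling, 2.11 without wild type 1 and 0.40 without Mtdh-/- 1, against -1.01 without wild type 2 and -1.14 without Mtdh-/- 3.

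**Figure D1:**
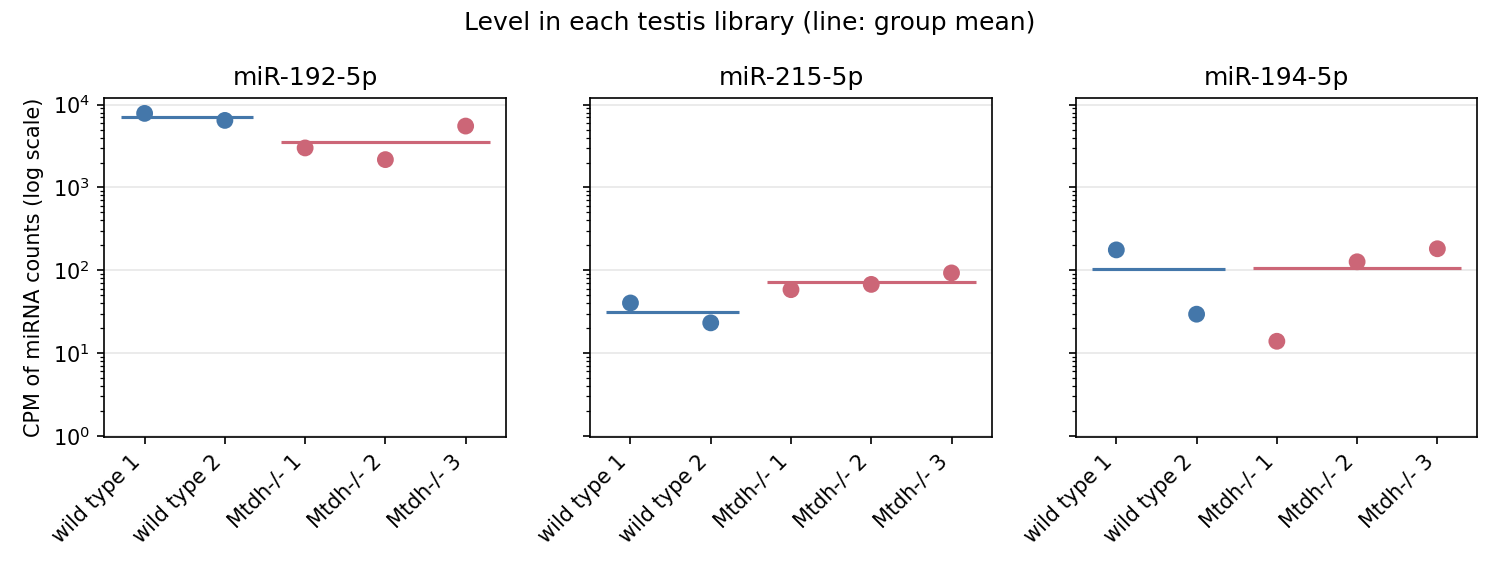
Level of each miRNA in each library, in CPM on log scales, with wild-type libraries in blue, Mtdh-/- libraries in red and a horizontal bar at each group mean. miR-192-5p lies between 2169 and 7843 CPM and is lower in each Mtdh-/- library, miR-215-5p lies between 23.2 and 92.9 CPM and is higher in each, and the miR-194-5p groups overlap.

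Across all 246 miRNAs tested, the quasi-likelihood test of edgeR, adjusted after Benjamini and Hochberg, called 0 (0%) between genotypes, with 7 whose unadjusted p was under 0.05. DESeq2 called 0 of 512 (19 before adjustment), and limma, run on the authors' scaled tags, 0 of 246 (4 before adjustment). The common biological coefficient of variation of the edgeR fit, its spread between libraries of a group, was 0.70. With 2 and 3 libraries and this spread, 0 calls do not show that the genotypes were alike. Every Mtdh-/- library lay below both wild-type libraries for 23 of the 246 miRNAs (9.35%), miR-192-5p among them, and above both for 12 (4.88%), miR-215-5p among them. As the members were picked for these directions, nothing is read from their being in those counts. In the authors' deposited tables, which set normalized tags of one sequence per miRNA against the control group, miR-192-5p was listed at a ratio of 0.415 for Mtdh-/- 1 and 0.289 for Mtdh-/- 2. The authors' deposited table for those 2 libraries together gave a ratio of 0.352 with a p-value of 0.0116, from a test not given in the sources used here. It was not listed for Mtdh-/- 3 or for any group with that library. miR-194-5p was in the authors' deposited table for Mtdh-/- 1 alone, at a ratio of 0.252, and miR-215-5p was in 0 of the 13 tables read.

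Ordered by level, miR-192-5p came far first, at rank 33 of 717 by mean CPM, with ranks from 20 to 59 in single libraries. miR-194-5p ranked 187 (140 to 281) and miR-215-5p ranked 216 (188 to 277). miR-192-5p was the highest of the 3 in 5 of 5 libraries. The order of the other two did not hold across libraries, as miR-194-5p exceeded miR-215-5p in each library except Mtdh-/- 1. The spread over all 5 libraries was 3.62-fold for miR-192-5p, 4.01-fold for miR-215-5p and 13.1-fold for miR-194-5p. Within wild type alone miR-192-5p varied by 1.22-fold, and within Mtdh-/- by 2.54-fold.

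The opposite arms of the hairpins were almost unread. miR-192-3p, miR-215-3p and miR-194-1-3p had 0 counts in the 5 libraries. miR-194-2-3p had 2 counts, both in Mtdh-/- 2, or 16.9 CPM against the limit of 25.3 CPM for 3 counts in that library. Set against 3 counts in each library, or 15 over the 5 libraries, the 8467 counts of miR-192-5p were at least 564-fold higher than those of miR-192-3p, and the 93 counts of miR-215-5p at least 6.2-fold higher than those of miR-215-3p. The few reads of the miR-194 opposite arm give no usable share for the cluster of origin. The deposited lines for the Mir194-1 and Mir194-2 precursors carried 121 and 115 counts of miR-194-5p over the 5 libraries, and nearly equal counts in each library. They differed by 3, 0, 2, 0 and 1 counts in the libraries.

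The ratio of the paralogs needs no library scaling, since both counts come from the same library. There were 195 and 279 counts of miR-192-5p for each count of miR-215-5p in wild type, and 51.5, 32.1 and 59.4 in Mtdh-/-. The groups did not overlap, which follows from the choice of these members for opposite directions, so nothing is read from it. The ratio spanned 8.67-fold in all. With 0.5 added to each count, the log2 ratio averaged 7.79 ± 0.38 for wild type and 5.48 ± 0.50 for Mtdh-/- (SD, n = 2 and n = 3), which differ by -2.30. Leaving out any one library kept this difference between -2.57 and -2.02, which describes the same chosen values and is no separate support. The form counted moved it more, to -1.84 from the most abundant sequence and to -4.92 from the exact mature sequence. As miR-215-5p had 0 exact counts in wild type, the size of the latter is set in part by the 0.5 added.

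Seen as a share of the reads with the seed UGACCUA, miR-215-5p was always a small minority. It made up 0.511% (95% Wilson interval 0.259 to 1.00) and 0.358% (0.20 to 0.639) in wild type. In Mtdh-/- it made up 1.91% (1.41 to 2.57), 3.02% (1.54 to 5.84) and 1.66% (1.12 to 2.45). These intervals cover counting error only, since reads without molecular identifiers are not independent molecules. The genotype difference in this share follows from the same choice of members. The summed level of the seed therefore followed miR-192-5p, at 7884 and 6478 CPM in wild type and 3060, 2237 and 5607 CPM in Mtdh-/-. The levels of miR-215-5p were small beside the differences in miR-192-5p between libraries.

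Neither paralog kept a fixed ratio to miR-194-5p, its neighbour in the cluster. Counts of miR-192-5p for each count of miR-194-5p were 44.5 and 219 in wild type and 216, 17.1 and 30.3 in Mtdh-/-, a 12.8-fold range. Counts of miR-215-5p for each count of miR-194-5p were 0.229 and 0.786 in wild type and 4.20, 0.533 and 0.511 in Mtdh-/-, an 18.4-fold range. The genotypes overlapped in both ratios, with mean log2 ratios of 6.59 ± 1.60 and 5.55 ± 1.90 for the former and -1.20 ± 1.22 and 0.065 ± 1.69 for the latter (SD, n = 2 wild type and n = 3 Mtdh-/-). The low counts of miR-194-5p in wild type 2 and Mtdh-/- 1, 14 and 10, limit both.

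**Figure D2:**
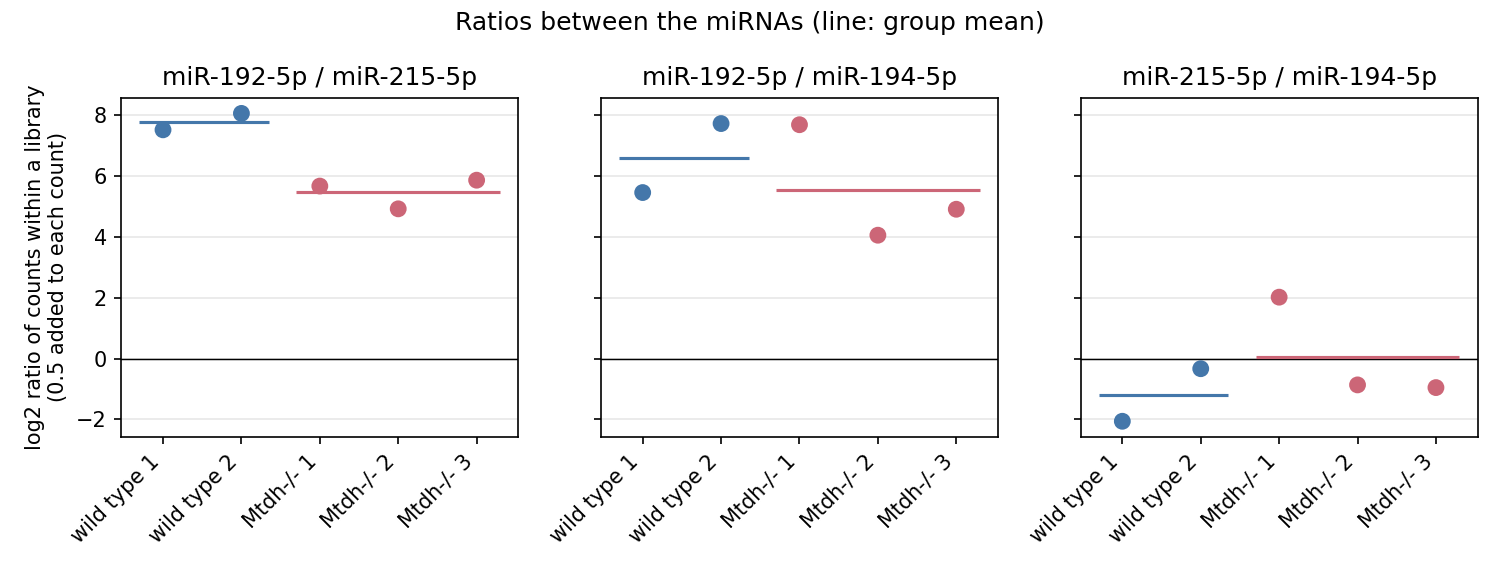
Ratio of counts for each pair of miRNAs in each library, on log scales, with wild-type libraries in blue and Mtdh-/- libraries in red. The log2 ratio of miR-192-5p to miR-215-5p is 7.52 and 8.06 in wild type and at most 5.86 in Mtdh-/-, while the ratios to miR-194-5p overlap between genotypes.

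The members also differed in which form of the molecule was read. The deposited counts separate reads identical to the reference mature sequence from all reads assigned to a miRNA. As these exact reads are part of the counts that chose the members, differences in their share between genotypes are given with no test, and only the miRNAs are tested against each other within libraries. The most abundant deposited tag of each is shown, as DNA letters, with capitals for bases beyond the 3′ end of the RefSeq mature sequence.
miR-192-5p: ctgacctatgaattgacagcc
miR-215-5p: atgacctatgatttgacagacC
miR-194-5p: tgtaacagcaactccatgtggaAT
For miR-192-5p this tag was the mature sequence itself, for miR-215-5p it carried 1 more base, and for miR-194-5p it carried 2. To place the added bases, the genomic continuation of each mature sequence is shown from RefSeq (GRCm38.p6, + strand), with the next 4 bases in capitals.
Mir192, chr19:6264857-6264881: ctgacctatgaattgacagccAGTA
Mir215, chr1:185313610-185313634: atgacctatgatttgacagacCGTG
Mir194-1, chr1:185313325-185313350: tgtaacagcaactccatgtggaCTGT
Mir194-2, chr19:6264658-6264683: tgtaacagcaactccatgtggaAGTG
The added base of the miR-215-5p tag matches its hairpin, so the whole tag is encoded there. The miR-194-5p tag follows Mir194-2 for 23 bases and then differs by G24T, and it follows Mir194-1 for 22 bases and then differs by C23A (positions from 1 at the 5′ end, hairpin base first). Where the unmatched base was gained was not tested.

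Most miR-192-5p reads were the exact mature sequence. Its share was 74.8% and 85.1% in wild type and 77.2%, 77.0% and 77.8% in Mtdh-/-. The mean of 78.4 ± 3.92% (SD, n = 5) compares with a median of 37.0% (quartiles 13.5 and 55.0) over the 192 miRNAs with a mean of at least 100 CPM, of which 4 had a higher share. Between genotypes the difference was -2.58 percentage points, with overlapping groups. It was 2.58 points without wild type 2, the library with the highest share.

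For miR-215-5p the exact mature sequence was read in Mtdh-/- libraries only, at counts too low for a firm statement. It was 0 of 8 and 0 of 11 reads in wild type, which allows shares of up to 37.5% and 27.3% by the limit of 3 counts and 32.4% and 25.9% by the Wilson interval. In Mtdh-/- it was 12 of 42 (28.6%, 95% Wilson interval 17.2 to 43.6), 3 of 8 (37.5%, 13.7 to 69.4) and 5 of 24 reads (20.8%, 9.24 to 40.5). The groups did not overlap, but the limits of both wild-type libraries reach into the range of the Mtdh-/- shares. The mean difference was 29.0 percentage points. The 22-base tag made up 100% of reads in both wild-type libraries and 66.7%, 62.5% and 79.2% in Mtdh-/-. The smallest deposited count above 0 was 2, so reads of rarer forms may be missing from these shares. The intervals do not allow for this, and its effect was not tested.

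For miR-194-5p the exact mature sequence was the minority in each library. Its share was 22.9% and 28.6% in wild type and 20%, 20% and 23.4% in Mtdh-/-. The genotypes overlapped, with a difference of -4.58 percentage points. The tag with the 2 added bases made up between 30% and 60% of reads.

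Compared within libraries, miR-192-5p had a higher exact share than each of the others in 5 of 5 libraries. The difference was 61.0 ± 18.7 percentage points from miR-215-5p (SD, n = 5, range 39.5 to 85.1) and 55.4 ± 2.25 points from miR-194-5p (51.9 to 57.2). For each, the exact two-sided sign-flip test gave p = 0.063, the smallest that 5 libraries allow, and 0.0938 adjusted over the 3 pairs, so neither could pass 0.05. miR-215-5p and miR-194-5p differed by -5.59 ± 19.8 points (SD, n = 5), with miR-215-5p higher in 2 of 5 libraries (exact sign-flip test, p = 0.562). The difference between the paralogs was larger than its spread between libraries, and it belongs to the exact form. With the share of each miRNA's most abundant sequence in its place, miR-192-5p minus miR-215-5p was -3.28 points.

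**Figure D3:**
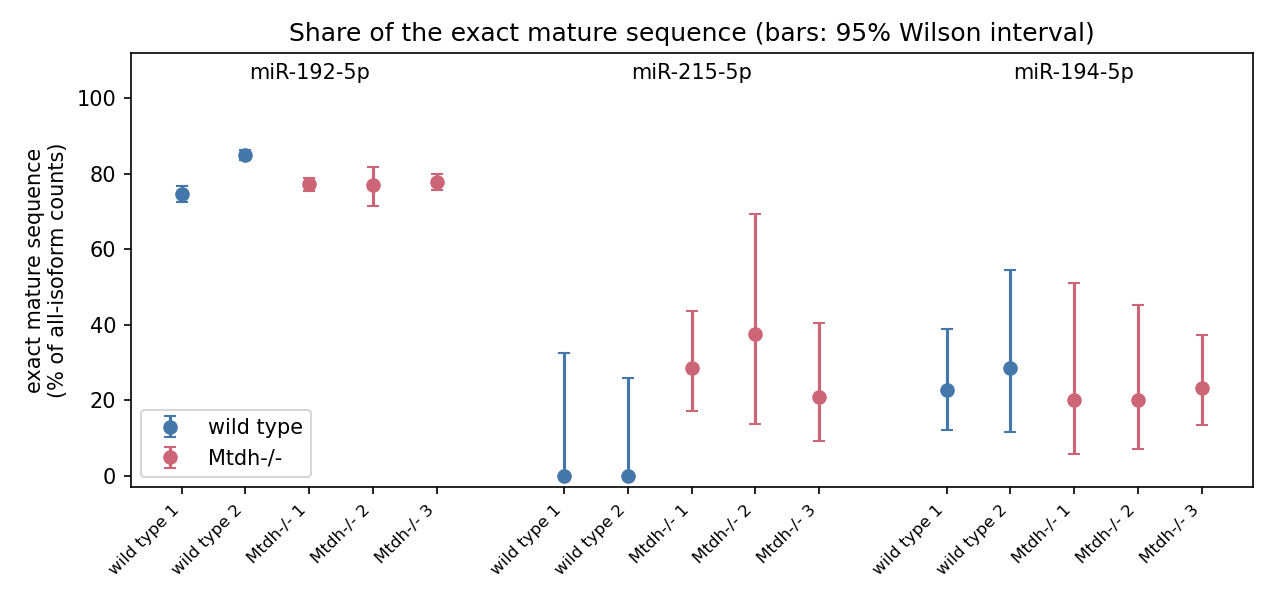
Share of each miRNA's counts that were the exact mature sequence, in percent, in each library, with wild-type libraries in blue, Mtdh-/- libraries in red and bars for 95% Wilson intervals. miR-192-5p lies between 74.8% and 85.1% with narrow intervals, while the intervals of miR-215-5p and miR-194-5p are wide and overlap.

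The profiles of the 3 over the libraries can be put as distances, where that between miR-192-5p and miR-215-5p was set in part by their choice for opposite directions. With log2 CPM centred on its mean over the 5 libraries, the root mean square difference was 1.12 between miR-192-5p and miR-215-5p, 1.36 between miR-192-5p and miR-194-5p, and 1.22 between miR-215-5p and miR-194-5p. These are near the median distances to all miRNAs of at least 100 CPM given next, and the miRNAs nearest to each lay much closer. For miR-192-5p they were miR-184-3p (0.110) and miR-3470b (0.120), against a median distance of 1.01. miR-184-3p had 2588, 2626, 1091, 853 and 2179 CPM in wild type 1 and 2 and Mtdh-/- 1, 2 and 3, with the low values in the same libraries as for miR-192-5p.

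For miR-215-5p the nearest were miR-125a-5p (0.274) and miR-125b-5p (0.297), which share a seed with each other, against a median of 0.956. miR-125a-5p had 2004, 1108, 1813, 2473 and 4810 CPM in the same order, highest in Mtdh-/- 3 like miR-215-5p, though its groups overlapped. For miR-194-5p they were miR-186-5p (0.438) and miR-29a-3p (0.555), against a median of 1.46. miR-29a-3p had 6610, 1407, 1538, 3469 and 11102 CPM, high in wild type 1 and Mtdh-/- 3, the pair of libraries most alike in all miRNAs. These are the nearest of about 190 candidates over 5 libraries and are given as a description.

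**Figure D4:**
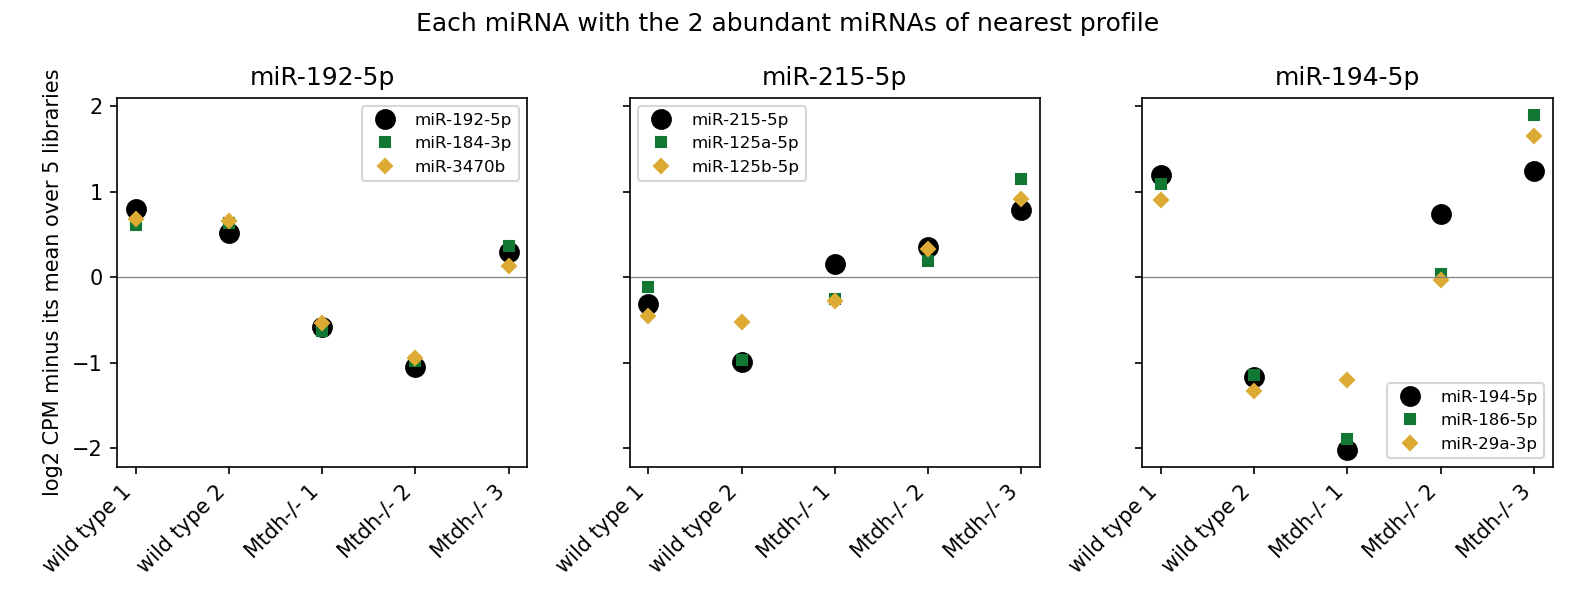
Log2 CPM minus its mean over the 5 libraries for each of the 3 miRNAs (black circles) and for its nearest and second nearest miRNAs (green squares, yellow diamonds), in panels by miRNA and by library on the horizontal axis. miR-192-5p and its neighbours are low in Mtdh-/- 1 and 2, whereas miR-194-5p and its neighbours are low in wild type 2 and Mtdh-/- 1.

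Other miRNAs that bear on these families were read as lists, described by counts beside those over the 246 tested, of which 137 had a fold change above 0 and 109 below it, with a median log2 fold change of 0.19. In the list of 8 other miRNAs reported to respond to p53 in human cells, 5 were higher and 3 lower in Mtdh-/-. Their median was 0.29, and edgeR called 0. miR-34a-5p, a direct p53 target in human cells, had 2326 and 4880 CPM in wild type and 6548, 3570 and 2565 CPM in Mtdh-/-, so the groups overlapped. The summed level of the 8 was 171142 to 172221 CPM in wild type and 157564 to 188424 CPM in Mtdh-/-, a range that includes the wild-type values. Most of this sum was miR-143-3p, miR-16-5p and miR-34c-5p, so it says little about the other members. miR-34c-5p is also in the list of testis cells that follows.

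Among 8 miRNAs of testis germ and Sertoli cells, all counted in these libraries, 7 were lower and 1 was higher in Mtdh-/-. Their median log2 fold change was -0.45, and edgeR called 0. The median ran from -0.83, when Mtdh-/- 3 was left out, to -0.08 when wild type 1 was, and it was -0.20 when wild type 2 was. The genotypes overlapped for each member except miR-465c-5p, which was lower in every Mtdh-/- library. Over all 246 tested, 23 (9.35%) were lower in every Mtdh-/- library and 12 (4.88%) were higher. Summed, they reached 121783 and 124901 CPM in wild type, against 76846, 48812 and 96207 CPM in Mtdh-/-. The sum was lower in each Mtdh-/- library, with Mtdh-/- 3 nearest to wild type and Mtdh-/- 2 farthest. miR-192-5p ordered the Mtdh-/- libraries in the same way, but the wild-type libraries in the opposite order. The wild-type sums were alike although their members were not, as miR-34c-5p had 49512 and 10846 CPM and miR-449a-5p 7128 and 36924 CPM. The part of these cells in the level of miR-192-5p was not tested.

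Because the families are known from epithelia and liver, markers of tissue that could be carried along were read as well. Among 8 epithelial miRNAs, of which 6 passed the filter on low counts, 3 were higher and 3 lower, with a median log2 fold change of -0.03. The genotypes overlapped for each except miR-141-3p, with 222 and 82.1 CPM in wild type and 33.3, 33.8 and 77.4 CPM in Mtdh-/-. Of the 246 tested, 9.35% were lower in every Mtdh-/- library. The sum of the 8 ran from 7828 to 21401 CPM in wild type and from 6527 to 10374 CPM in Mtdh-/-, so the groups overlapped. miR-205-5p, of stratified epithelium, was counted in Mtdh-/- 3 alone, at 7.74 CPM. miR-122-5p, the defining miRNA of hepatocytes, had 10.1 and 19 CPM in wild type and 0, 42.2 and 0 CPM in Mtdh-/-. The highest of these values rests on 5 counts, and the zeros allow up to 4.17 and 11.6 CPM, so the libraries cannot be ordered by it.

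Of 5 blood miRNAs, 2 passed the filter, 1 of them higher and 1 lower. Their sum was 1527 to 1636 CPM in wild type and 1082 to 1359 CPM in Mtdh-/-, with no overlap. Most of this sum was miR-3107-5p, which has the same most abundant sequence as miR-486a-5p, with 1535 and 1352 CPM in wild type and 945, 1089 and 1207 CPM in Mtdh-/-. miR-451a, of red blood cells, had 55.4 and 90.6 CPM in wild type and 107, 194 and 50.3 CPM in Mtdh-/-, which overlap. miR-142-3p did not pass the filter but, like miR-3107-5p, was lower in each Mtdh-/- library. It had 35.2 and 44.2 CPM in wild type and 9.72, 16.9 and 11.6 CPM in Mtdh-/-, from 21 counts or fewer. Of the 246 tested, 9.35% were lower in every Mtdh-/- library. No list had a member at 0 in all 5 libraries. The part of blood, liver or epithelium in the members' levels was not tested.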

How the data were processed

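Frozen testes gave RNA by a mirVana kit and libraries by an Illumina TruSeq RNA Sample Prep kit, per the labels' protocols, which name no kit for small RNA although the counts are of miRNAs. Novoalign 2.07.11, an aligner, is listed per the submitters' processing notes. Their genome build, adapter trimming and way of counting were not given in the sources used here. The authors deposited raw tag counts per miRNA and precursor (all isoforms, most abundant sequence, exact mature sequence). They also deposited the same tags scaled per library, a normalized score. Their tables hold a fold ratio and, for groups, a p-value, per the file headers. A blank was read as 0, and the smallest count above 0 was 2. The sheet held 846 lines for 736 names. For each name the precursor line with the largest total was kept, leaving out 110 lines. Where names had the same most abundant sequence, the one with the largest total was kept. This left out 19 names, whose counts were not added. A further 236 columns of per-library values were not used.

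The test was edgeR 4.0.16 under R 4.3.3 (robust quasi-likelihood, TMM, filterByExpr), Benjamini-Hochberg adjusted at 0.05, and a positive log2 fold change means higher in Mtdh-/-. The script was tested on simulated data. DESeq2 1.42.0 and limma 3.58.1 (on log2 of the normalized score with 10 added) were alternatives. Library totals for CPM are sums over the 717 miRNAs. Exact sign-flip tests compared exact-mature shares between miRNAs. A planned genotype test of these shares is not reported, since the exact reads are part of the counts that chose the members. Nearest miRNAs were the 2 tested miRNAs of at least 100 mean CPM with the smallest root mean square difference of centred log2 CPM (prior count 2). Hairpin positions and sequences come from RefSeq (GRCm38.p6), matched by name for 4 of 4 hairpins. Overlapping and nearest genes come from GENCODE M21. The members, lists and naming rule were chosen with earlier results of these data known.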

Additional observations from a re-analysis of the deposited data

How the results depend on the processing

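With no filter on low counts, edgeR called 5 of 512 miRNAs, in place of 0: miR-17-3p, miR-191-3p, miR-199a-5p, miR-214-3p and miR-883b-5p, named after their values were seen. None is a member of either family. Under the other settings, and without any one library, it was 0. The log2 fold change of miR-192-5p stayed below 0 under each alternative, from -1.45 to -0.41 when single libraries were left out. That of miR-215-5p stayed above 0, at 0.73 from the most abundant sequence and from 0.72 to 2.07 without single libraries. That of miR-194-5p was 0.065 with library totals and from -1.14 to 2.11 without single libraries. The paralogs' log2 ratio differed by -1.84 from the most abundant sequence and by -2.57 to -2.02 without single libraries. From the exact mature sequence it differed by -4.92, set in part by the 0.5 added, as miR-215-5p had 0 exact counts in wild type. Using the share of the most abundant sequence in place of the exact one turned 3 differences. For miR-192-5p both are the same sequence. For miR-215-5p they are different tags that together made up most reads, 28 and 12 of 42 counts in Mtdh-/- 1. A higher share of one therefore goes with a lower share of the other. The cause for miR-194-5p was not tested. miR-192-5p minus miR-215-5p became -3.28 points, and Mtdh-/- minus wild type became -30.6 points for miR-215-5p and 1.33 points for miR-194-5p. Without single libraries these exact-share differences ran from 55.0 to 66.4, from 24.7 to 33.0 and from -7.44 to -1.72 points, and that of miR-192-5p from -7.73 to 2.58. List medians ran from -0.83 to -0.08 (testis), from -0.52 to 0.11 (epithelium) and from -0.19 to 0.63 (p53). No median is given for lists with fewer than 3 tested members.

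Wild type and Mtdh-/- share the numbers 1 and 2 in their titles. Same-numbered libraries deviated with r = -0.44 and 0.094, and no label says that a number pairs them. With the number as a replicate block edgeR called 0, and log2 fold changes were -1.28 for miR-192-5p, 1.22 for miR-215-5p and -0.59 for miR-194-5p. The block put the paralogs' log2 ratio at -2.49 and the genotype differences in exact share at -2.81, 33.0 and -5.71 points.

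Library totals in place of TMM moved the median log2 fold change of all miRNAs by -0.17, with no other change of a member's direction. Depth limits miR-215-5p and miR-194-5p, with 93 and 121 counts in all. A few counts set each value.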
